A study of Mus musculus with 4 samples.

Results

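A set of 10 direct targets of the tumour suppressor p53 was followed in sorted intestinal stem cells of mice with and without the type I interferon receptor. The genes were Cdkn1a, Mdm2, Ccng1, Trp53inp1, Phlda3, Zmat3, Aen, Perp, Eda2r and Bbc3, taken by name, and every probe whose RefSeq accession maps to one of these symbols was used. They make up 10 of the 24865 genes that could be tested, and their 14 probes are among 55681 on the array. Both groups of mice carried the Lgr5-EGFP-Ires-CreERT2 knock-in allele, which places a green fluorescent reporter and an inducible recombinase under the Lgr5 locus and marks the stem cells at the base of the crypt. Control mice carried this allele alone. Knockout mice were Ifnar1-/-:Lgr5-EGFP-Ires-CreERT2 and so lacked Ifnar1, without which cells cannot respond to type I interferon. Mice of both genotypes were given daily intraperitoneal poly(I:C), a double-stranded RNA mimic of viral infection that induces interferon, at 2 mg/kg for 1 week per the series design, and no untreated group is analysed here. Lgr5-high cells were collected by flow cytometry, and total RNA of 2 samples per group was amplified, labelled with Cy3 and hybridised to 4 single-colour Agilent arrays. Age, and whether a sample was 1 animal or a pool, are not given in the sources used here. Nothing states that the samples of a group came from separate animals, so the spread behind each p-value is that between these samples and may be technical.

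The transcription factor p53 is held at a low level in unstressed cells by the ubiquitin ligase Mdm2 and accumulates after DNA damage and other stress. It then binds a pair of decamers in its target genes and switches on cell cycle arrest, DNA repair, apoptosis and its own feedback inhibitors. In the intestinal crypt this response is best known from irradiation, after which p53 and its target Bbc3 decide much of the loss of crypt cells. Type I interferon has been reported to raise transcription of the p53 gene itself in cultured mouse cells.

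Samples with the same replicate number shared a slide and a scan, so each slide held 1 control and 1 knockout sample. On each array 63.3% to 67.7% of the spots that are not controls were well above background and 0 were saturated. Signals are log2 values relative to the 75th percentile of their array, so 0 is a rather bright probe, and a level of one probe cannot be set against that of another. The targeted gene was at -0.21 in control 1, -0.37 in control 2, -1.76 in knockout 1 and -2.28 in knockout 2, so Ifnar1 was lower in the knockout on both slides (difference -1.73; limma with slide block, adjusted p = 0.0496; without it, adjusted p = 0.478). With normexp background correction its difference was -1.11. The sources do not tell whether its probe falls inside the deleted sequence, so this level checks the labels only in part. Of 10 Lgr5 stem cell markers 9 were measured, all of them well above background on the 4 arrays, and their linear signals, as multiples of the 75th percentile, summed to 128 and 146 in the controls and to 133 and 146 in the knockouts. Olfm4 has no probe named here. The sorts were not equal in markers of other cells: the 8 Paneth cell markers measured of 10 were all lower in the knockout on both slides, with summed signals of 466 and 596 in the control against 121 and 193 in the knockout, and all were well above background on the 4 arrays. The 8 enterocyte markers summed to 45.5 and 53.9 in the controls against 65.7 and 69.5 in the knockouts. Of these, 6 were higher in the knockout on both slides and 2 lower on both. In the same order, 7 of 8 enteroendocrine markers summed to 7.79 and 11.9 against 4.35 and 6.98, with 6 of them lower in the knockout on both slides. Control and knockout sums overlapped for goblet cell markers (141 and 143 against 110 and 152). They also overlapped for tuft cell markers (2.25 and 2.44 against 2.00 and 2.79) and for stroma and endothelium markers (5.60 and 6.60 against 6.46 and 6.58). The 7 leukocyte markers measured of 8 summed to 6.18 and 8.30 against 3.35 and 5.07, but 6 of them were higher in the knockout mean, and the 1 that was lower, Lyz2, differed by -2.64. The part of these cells in the values below was not tested. In such bulk samples, fewer cells of a type and less RNA per cell cannot be told apart.

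None of the p53 targets passed the test on these 4 arrays: 0 of 10 were called higher or lower in the knockout. Over all genes, limma without a slide term called 0% in either direction, while a second fit that took the slide as a block called 0.0322% of genes higher and 0.330% lower (0.362% in either direction), so that with few calls anywhere a count of 0 among 10 is near the background. At an unadjusted p under 0.05 the count was also 0 of 10 in both fits of limma, where the slide-block fit had 7.31% of all genes higher and 4.93% lower. The fit without the slide term had 258 of 24865 genes higher and 427 lower at that p. Without the slide term, unadjusted p ran from 0.103 for Eda2r to 0.984 for Aen, and each adjusted p was 1.00. An exact permutation test over 2 against 2 arrays cannot go below a two-sided p of 0.333 and was therefore not used. The median difference of the 10 genes, knockout minus control, was 0.02, and that of all genes tested was also 0.02. On slide 1 the median of the members was 0.14 and on slide 2 it was -0.03. Among the members 8 of 10 differed by less than 0.25 in either direction, against 66.4% of all genes.

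**Figure D1:**
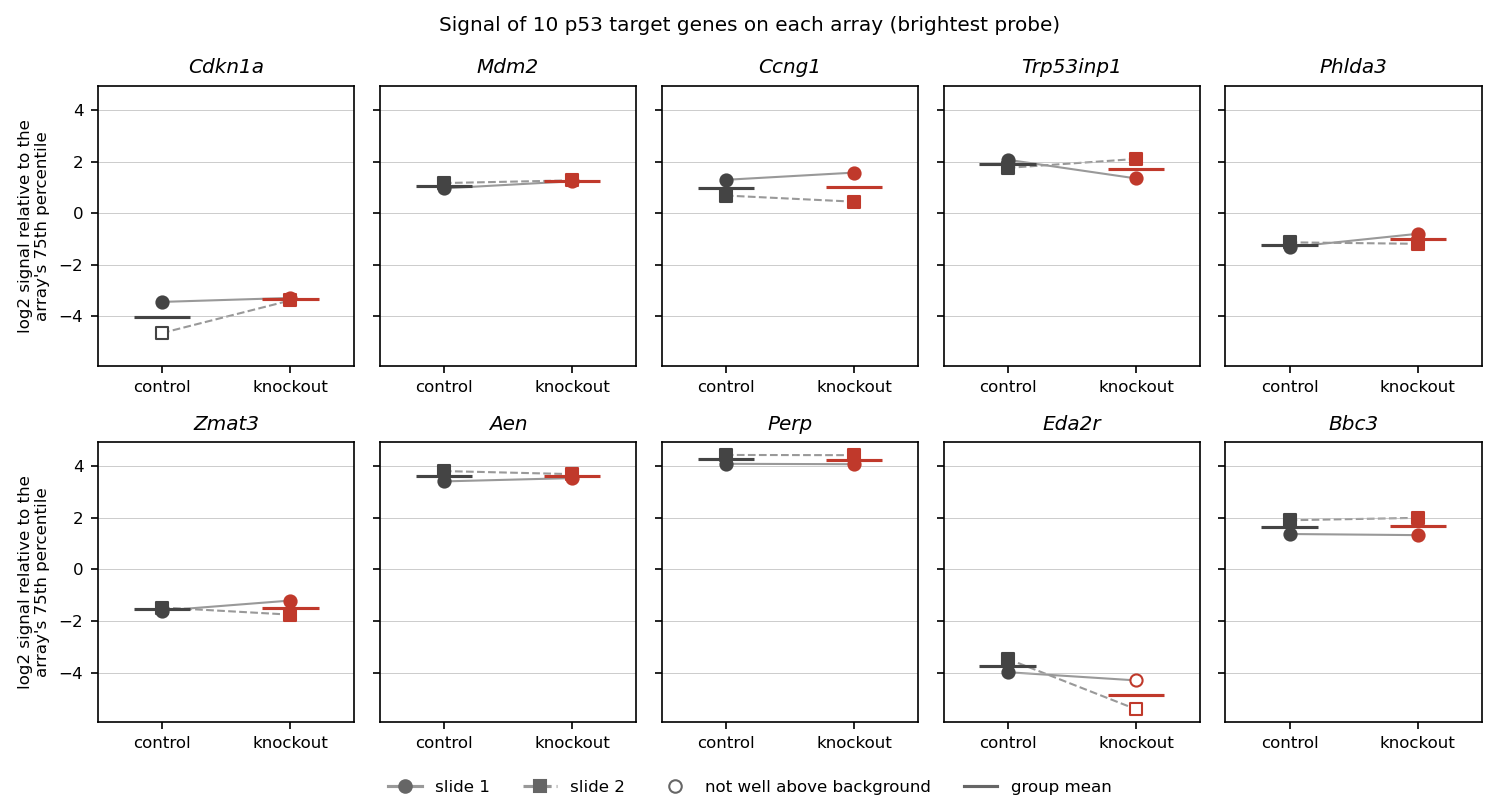
Log2 signal of the brightest probe of each of the 10 p53 target genes, relative to the 75th percentile of the array, in control (grey) and knockout (red) samples; circles and solid lines are slide 1, squares and dashed lines slide 2, horizontal bars are group means of 2 arrays, and open symbols were not well above background. Differences in 8 panels are under 0.25, while Cdkn1a and Eda2r have open symbols; heights of different panels are not comparable between genes.

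Matches to the p53 decamer in promoter windows are shown first. RefSeq promoter windows of GRCm38.p6, from 250 bases before to 50 after an annotated start, were matched by symbol for 7 of the 10 members (11 windows). Trp53inp1, Zmat3 and Perp have no entry. The decamer consensus of the p53 response element, searched on both strands, matched in 5 windows of 4 genes (Cdkn1a, Mdm2, Ccng1 and Aen), against 8.36% of all 32851 windows of this length. The Aen windows overlap and hold the same decamer, which is thus counted in each. A pair of such decamers at most 13 bases apart was found in 1 member window, upstream of Cdkn1a, against 0.0731% of all windows. That window is given up to the base before the start because it is the one with a pair of matches, on the plus strand at chr17:29090729-29090978, with both decamers in capitals:
Cdkn1a: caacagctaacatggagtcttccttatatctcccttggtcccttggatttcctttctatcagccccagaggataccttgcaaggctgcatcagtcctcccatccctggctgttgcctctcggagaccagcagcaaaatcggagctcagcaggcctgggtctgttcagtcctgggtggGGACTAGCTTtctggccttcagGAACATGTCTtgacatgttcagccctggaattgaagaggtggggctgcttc
The decamers lie from -73 to -64 and from -51 to -42 relative to that start. A second Cdkn1a window, of a later start at chr17:29093519-29093818, held 0 decamer matches. The single matches of the other genes are shown with 10 bases on each side, at chr10:117710925-117710954 (minus strand, from -186 to -177), chr11:40755452-40755481 (minus strand, from -185 to -176) and chr7:78895927-78895956 (plus strand, from -121 to -112 relative to the later of 2 starts):
Mdm2: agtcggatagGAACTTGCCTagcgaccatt
Ccng1: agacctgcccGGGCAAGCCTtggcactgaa
Aen: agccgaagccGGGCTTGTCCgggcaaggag
Such matches are letters in a window and not shown to be bound. The member windows were rich in G and C, with a median of 64.7% and a range of 50.3% to 78.0%, where the median of all windows was 52.7%.

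Interferon acts through other letters. GAAA followed by any 2 bases and GAAA again, the core of the interferon-stimulated response element, searched on both strands, was in 0 of the 11 member windows, in 10 of 18 windows of the interferon-stimulated genes listed here (16 genes with a window, of 25) and in 3.44% of all windows. TTCNNNGAA, the gamma-activated site, searched in the same way, was in 0 of 11 member windows. It was in 4 of 18 windows of the interferon-stimulated genes and in 8.30% of all windows. With such shares over all windows, 0 among 11 is near the background for either motif. The absence of these letters concerns only these windows and says nothing about the factors.

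Feedback inhibitors come first among the members. Mdm2, the ubiquitin ligase that marks p53 for degradation, was at 0.96 in control 1, 1.17 in control 2, 1.24 in knockout 1 and 1.27 in knockout 2. Both knockout samples lay above both control samples, by a margin smaller than the spread between the controls. The difference was 0.19 with 0.27 on slide 1 and 0.10 on slide 2 (95% interval -0.10 to 0.48; limma with slide block, adjusted p = 0.546), which is 1.14-fold. Ccng1, cyclin G1, recruits a phosphatase that activates Mdm2. Its signal was 1.29 in control 1, 0.68 in control 2, 1.57 in knockout 1 and 0.45 in knockout 2. Slide 1 was high and slide 2 low in both genotypes, and the groups overlapped. The difference was 0.02, made of 0.28 on slide 1 and -0.24 on slide 2 (95% interval -0.38 to 0.42; limma with slide block, adjusted p = 0.972).

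Cdkn1a encodes p21, the inhibitor of cyclin-dependent kinases that carries out arrest at the G1 checkpoint. Its brighter probe was at -3.44 in control 1, -4.65 in control 2, -3.29 in knockout 1 and -3.38 in knockout 2. Control 2 lay far below the other 3 samples and was not well above background, and the groups did not overlap. The difference was 0.71, with 0.15 on slide 1 and 1.27 on slide 2 (95% interval -0.38 to 1.80; limma with slide block, adjusted p = 0.542). Without control 2 the difference was 0.11, and without control 1 it was 1.31. The dimmer Cdkn1a probe, designed on another transcript of the gene, did not repeat this order, with -4.46 and -3.72 in the controls and -4.45 and -4.19 in the knockouts, a difference of -0.23. It was well above background in both controls and in knockout 2. With the mean of both probes the difference came to 0.24, and with normexp background correction it was 0.16. The 2 probes thus disagree in sign, at signals near the floor of the array, where the lowest value marked well above background ran from -4.74 to -4.26 on the 4 arrays. The brighter probe passed the filter through the knockout samples alone and the dimmer through the controls alone, so the filter favoured each direction.

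**Figure D2:**
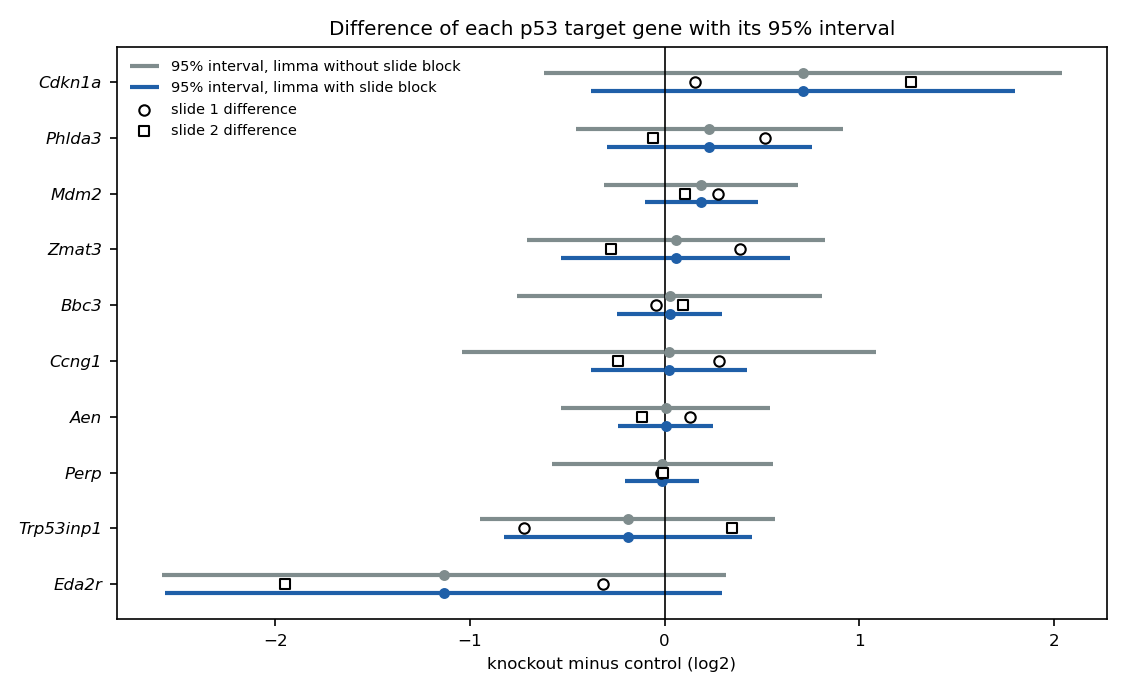
Knockout minus control for each p53 target gene on the log2 scale, with the 95% interval from limma without (grey) and with (blue) the slide as a block; open circles and squares are the differences within slide 1 and slide 2. The intervals of all 10 genes span 0 in both fits; in both they are widest for Eda2r and Cdkn1a, the dim genes, and the narrowest are Perp with the block and Mdm2 without it.

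The next members act on stress signalling and RNA. Trp53inp1 encodes a nuclear protein that assists p53 in stress and also takes part in autophagy. Its brighter probe was at 2.07 in control 1, 1.76 in control 2, 1.35 in knockout 1 and 2.10 in knockout 2. Knockout 1 was the lowest and knockout 2 the highest of the 4, so the groups overlapped and the slides pointed in opposite directions, -0.72 and 0.35. The mean difference was -0.19 (95% interval -0.83 to 0.45; limma with slide block, adjusted p = 0.793). A second Trp53inp1 probe on the same accession gave -0.23 on slide 1 and 0.25 on slide 2.

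Phlda3, which competes with Akt for membrane lipids and so restrains its activation, was at -1.32 in control 1, -1.13 in control 2, -0.80 in knockout 1 and -1.19 in knockout 2. Only knockout 1 stood above the controls. The difference was 0.23, from 0.52 on slide 1 and -0.06 on slide 2 (95% interval -0.30 to 0.76; limma with slide block, adjusted p = 0.681). Zmat3, an RNA-binding zinc finger protein of the p53 programme, was at -1.60 in control 1, -1.48 in control 2, -1.21 in knockout 1 and -1.75 in knockout 2. The knockouts lay on either side of the controls, with a difference of 0.06 (95% interval -0.53 to 0.65; limma with slide block, adjusted p = 0.945).

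Among the death genes, Bbc3 encodes PUMA, a BH3-only protein that neutralises the survival members of the BCL2 family. Bbc3 was at 1.37 in control 1, 1.91 in control 2, 1.33 in knockout 1 and 2.00 in knockout 2. Each knockout sample lay beside the control of its slide, and slide 2 was higher in both genotypes. The difference was 0.03 (-0.04 on slide 1 and 0.09 on slide 2; 95% interval -0.24 to 0.29; limma with slide block, adjusted p = 0.947). Perp, a membrane protein of desmosomes that also takes part in p53-dependent death, was at 4.10 in control 1, 4.44 in control 2, 4.08 in knockout 1 and 4.43 in knockout 2. Samples again paired by slide rather than by genotype, with -0.02 on slide 1 and -0.01 on slide 2 and a 95% interval of -0.20 to 0.18, the narrowest of the members' intervals in that fit (limma with slide block, adjusted p = 0.966). Aen, an exonuclease that enlarges DNA breaks during apoptosis, was at 3.41 in control 1, 3.82 in control 2, 3.54 in knockout 1 and 3.70 in knockout 2. The knockouts lay between the controls. Its slides gave 0.13 and -0.12 (95% interval -0.24 to 0.25; limma with slide block, adjusted p = 0.990), and a second Aen probe gave 0.12 and -0.21.

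Eda2r, a receptor of the tumour necrosis factor family that binds ectodysplasin A2, had the largest difference among the members. Its brighter probe was at -3.99 in control 1, -3.47 in control 2, -4.30 in knockout 1 and -5.42 in knockout 2. Both controls were well above background and neither knockout was, and the groups did not overlap. The knockout level is therefore uncertain. With each knockout value taken as the higher of its own and the array's lowest signal well above background, Eda2r was 1.71-fold lower. That fold is not a lower limit, as the interval below includes no change. The measured difference was -1.13, with -0.32 on slide 1 and -1.95 on slide 2, and it did not pass (95% interval -2.56 to 0.30; limma with slide block, adjusted p = 0.474). The probe entered the fit through the control samples alone. With normexp background correction the difference was -0.19, and leaving out 1 array gave -1.69 to -0.58. A second Eda2r probe was not well above background on any of the 4 arrays and was not fitted.

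Set side by side, 2 members lay higher on both slides (Cdkn1a and Mdm2), 2 lower on both (Eda2r and Perp) and 6 in opposite directions. Over all genes these shares were 33.9%, 27.3% and 38.8%. The groups did not overlap for 3 of 10 members, Cdkn1a, Mdm2 and Eda2r, against 26.0% of all genes. Cdkn1a entered the fit through the knockout samples alone and Eda2r through the controls alone, so the filter favoured the direction of each. In group means 7 members were higher and 3 lower, a split that moved to 6 and 4 with quantile scaling, 8 and 2 with median scaling, and 4 and 6 both with normexp and with the authors' deposited table. The differences of 5 members were within 0.1 of 0. Outside the 2 dim genes, the outer bounds of the 8 intervals with the slide block were -0.83 and 0.76, that is, up to 1.77-fold lower or 1.69-fold higher in the knockout. Intervals without the slide term were wider for all 10 members. The widest of the 8 in that fit, for Ccng1, ran from -1.04 to 1.08.

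Slides were compared within each genotype. For 7 of 10 members the mean size of the slide difference within a genotype was larger than the difference between the genotypes, as it was for 74.0% of all genes. Ccng1 was lower on slide 2 by 0.61 in the control and by 1.13 in the knockout. Bbc3 was higher on slide 2 by 0.53 in the control and 0.67 in the knockout, and Perp by 0.34 and 0.35. Aen was higher there by 0.40 and 0.15. In all, 6 of 10 members shifted in the same direction in both genotypes, against 74.9% of all genes. The mean net signal of the negative control spots also differed between slides, with 35.3 and 34.8 on slide 1 against 17.6 and 17.2 on slide 2, and its part in these shifts was not tested.

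**Figure D3:**
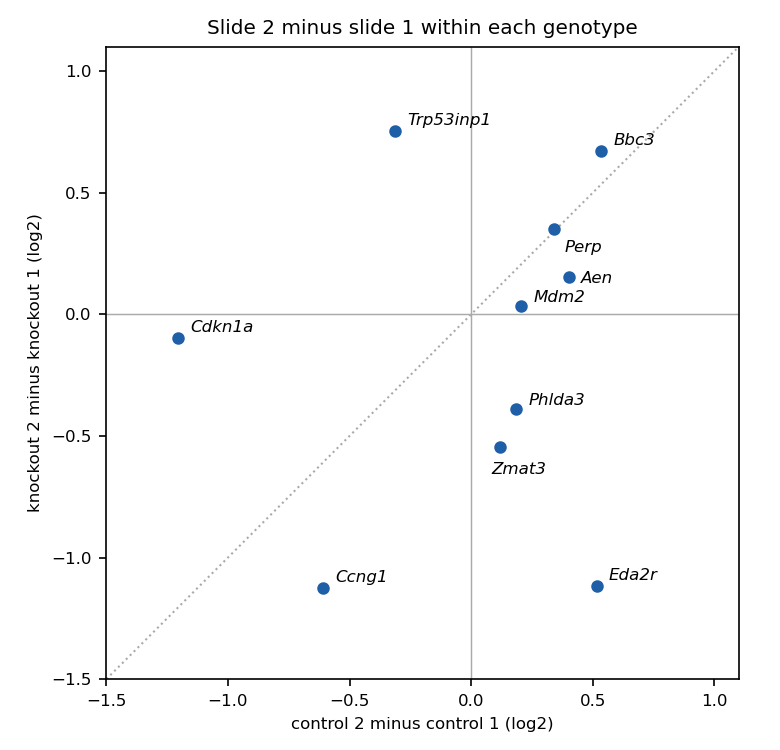
Slide 2 minus slide 1 within the control (horizontal axis) and within the knockout (vertical axis), log2, for the 10 p53 target genes; the dotted line marks equal shifts. Bbc3, Perp, Aen and Mdm2 lie in the upper right, Ccng1 and Cdkn1a in the lower left, and the other 4 shifted in opposite directions.

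The regulator itself came next. Trp53, which encodes p53, was at 2.79 in control 1, 2.83 in control 2, 2.89 in knockout 1 and 2.89 in knockout 2. The knockouts lay above the controls by a difference of 0.08 (95% interval -0.14 to 0.30; limma with slide block, adjusted p = 0.743). The RNA says nothing of the protein, which is controlled mainly by its degradation. Of 24 genes that make up p53, its relatives and its regulators, 23 were measured, with a median of -0.03, and 0 were called in either direction by limma in either fit. At an unadjusted p under 0.05, where limma had 7.31% of all genes higher and 4.93% lower, the slide-block fit held 2 higher and 2 lower. These were Sirt1, a deacetylase of p53, with a control mean of 1.03 ± 0.15 and a knockout mean of 1.49 ± 0.14 (SD, n = 2 arrays), and Atr, the kinase that senses stalled replication, with a difference of 0.69. On the other side, Pml, the scaffold of nuclear bodies and itself induced by interferon, differed by -0.39 and Chek1, the checkpoint kinase downstream of Atr, by -0.38. Their adjusted p-values with the slide block lay between 0.332 and 0.372.

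Further p53 targets gave the same count of calls. Of 33 listed genes of apoptosis, arrest, repair and metabolism, 30 were measured and 0 passed in either fit. Fas, Dram1 and Plk3 were not well above background on both arrays of any group. The median difference of the 30 genes was 0.15, or 0.22 on slide 1 and 0.09 on slide 2, where all genes had 0.02. Leaving out 1 array moved this median between 0.03 and 0.15. On both slides 16 of 30 were higher and 7 lower, against 33.9% and 27.3% of all genes. At an unadjusted p under 0.05 limma with the slide block held 3 higher and 1 lower, and without it 2 higher and 0 lower. Over all genes the block gave 7.31% higher and 4.93% lower, and the fit without it 258 and 427 of 24865. Siva1, an adaptor of death receptors, differed by 0.53, and its slide differences were 0.65 and 0.41 (adjusted p = 0.190 by limma with slide block). Sesn1, a stress sensor that restrains mTORC1, had a control mean of -0.32 ± 0.03 and a knockout mean of 0.38 ± 0.31 (SD, n = 2; adjusted p = 0.270 by limma with slide block). Epha2, an ephrin receptor, differed by 0.46, and Trp53i11 by -0.71.

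Relatives of the 2 best known effectors were compared in the same way. Of the 6 other inhibitors of cyclin-dependent kinases, 0 were called in either fit of limma. At an unadjusted p under 0.05 the count was 2 higher with the slide block and 1 lower, Cdkn2a, without it. Over all genes 7.31% were higher with the block and 427 of 24865 lower without it. Cdkn2d differed by 0.38 and Cdkn2c by 0.26, both of them inhibitors of the kinases Cdk4 and Cdk6. Cdkn2a, which gives rise to the p53 activator Arf, was well above background in both controls and in neither knockout. With its knockout values set as for Eda2r, it was 1.49-fold lower (measured difference -1.20, adjusted p = 0.411 by limma with slide block). Like Eda2r, it entered the fit through the control samples alone, so its direction was favoured by the filter. Cdkn1c was well above background in both controls and in 1 knockout sample, with slide differences of -1.35 and 0.06. The list median was -0.20, or -0.49 on slide 1 and 0.10 on slide 2.

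Of 7 BH3-only relatives of Bbc3, 5 were measured, with a median of 0.17. In either fit of limma 0 were called and 0 had an unadjusted p under 0.05. Over all genes the slide-block fit called 0.362%, and at that unadjusted p it had 7.31% higher and 4.93% lower. The fit without the block called 0% and had 258 of 24865 genes higher and 427 lower at that p. A count of 0 among 5 is thus near the background. Bmf differed by -0.54, Bid by 0.35, Bad by 0.21 and Pmaip1, which encodes NOXA and is a p53 target too, by 0.17. Bik and Hrk were too dim to be tested.

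Cell cycle genes that p21 represses through the DREAM complex were examined as the output of Cdkn1a. Of 18 listed, 17 were measured and 0 were called by limma in either fit. The median was -0.01, with -0.24 on slide 1 and 0.24 on slide 2. On the slides 9 of 17 took opposite signs, against 38.8% of all genes. At an unadjusted p under 0.05 with the slide block, Mcm5, a subunit of the replicative helicase, was higher (difference 0.44) and Bub1, a kinase of the spindle checkpoint, lower (-0.37). In that fit of limma 7.31% of all genes were higher and 4.93% lower at this p. Ccnb1, cyclin B1, differed by -0.32 and Foxm1, an activator of mitotic genes, by 0.24.

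Interferon's own targets were examined on the same arrays. Of 25 listed interferon-stimulated genes 23 were measured, 23 were lower on both slides and 10 fell with the slide block (limma over all genes; 0 without the block, where 21 had an unadjusted p under 0.05), with a median of -2.57, or -1.56 with normexp background correction. A gene well above background in the controls alone could enter this list, so the filter favoured a lower knockout for any such gene. Among probes well above background on all 4 arrays the median was -2.45. Xaf1, which promotes apoptosis and lies outside the p53 lists, had control and knockout means of 0.67 ± 0.55 and -3.07 ± 0.49 (SD, n = 2), and it fell with the slide block (limma, adjusted p = 0.00665). Over all genes 27.3% were lower on both slides and 0.330% were called lower with the slide block. Without the block, 427 of 24865 genes were lower at an unadjusted p under 0.05 (limma). Whether the lists differ was not tested.

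**Figure D4:**
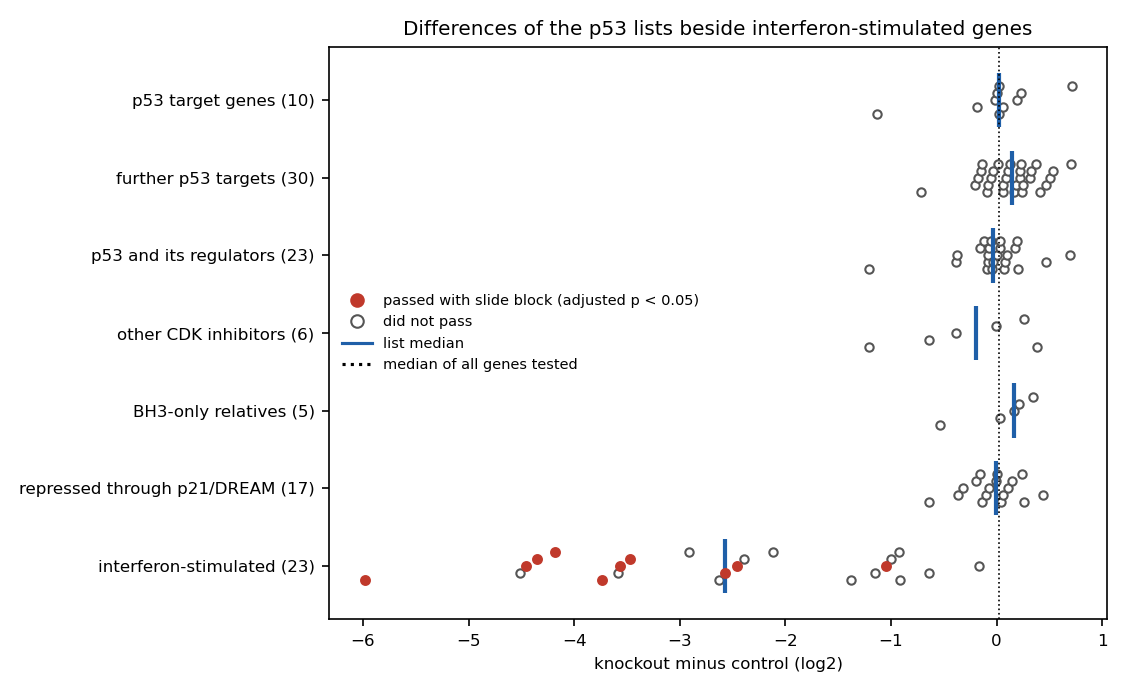
Knockout minus control (log2) for each measured gene of the p53 lists and of the interferon-stimulated list, with the number measured in brackets; filled red points passed with the slide block at an adjusted p under 0.05, blue bars are list medians and the dotted line is the median of all genes tested. The 6 p53-related lists centre between -0.20 and 0.17 with 0 filled points, and the interferon-stimulated list centres at -2.57 with 10.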

How the data were processed

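The deposited processed signal is a linear spot intensity, corrected for background by the authors' scanner software per the file headers. The file headers name Agilent Feature Extraction 12.0.3.1 as its source, and the submitters' processing notes give 11.5.1.1. The authors' deposited series table rescales this intensity array by array (constants of 5.60 to 6.68), with column medians of 249, 231, 239 and 223; it is linear, not centred, and the target of its scaling is unknown. Of 62976 spots per array, 59305 were not controls. Outlier spots (111 to 172 per array) were left out, log2 values were centred on each array's 75th percentile, and spots of a probe were averaged. Probes well above background on both arrays of a group were kept (35422 of 55681). Accessions without versions were matched to RefSeq's gene table of GRCm38.p6, which named 28331 probes and left 27350 unnamed. A gene is its brightest probe. Groups were compared with limma 3.58.1 (R 4.3.3), eBayes following the intensity, and p-values adjusted by Benjamini-Hochberg over 24865 genes with a threshold of 0.05, without a slide term and, beside it, with the slide (the replicate number) as a block. The fit was tested on simulated data. Samples of a slide deviated together: the difference between the controls and that between the knockouts, slide 1 against slide 2, had a Pearson r of 0.563 across genes, which are not independent replicates. The pairing comes from the slide barcodes in the file headers. The members and lists were chosen with earlier results of these data known. Named genes are the members, Ifnar1, Trp53 and up to 4 genes per list with the smallest p in the slide-block fit. Alternatives covered scaling, background correction, filters, probe rule, outlier flags, variance model, threshold and leaving out each array.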

Additional observations from a re-analysis of the deposited data

How the results depend on the processing

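No member passed the threshold in any of 148 values over 15 alternatives; the smallest adjusted p was 0.474, for Eda2r with the slide block (limma). Cdkn1a, Mdm2, Phlda3, Trp53inp1 and Eda2r kept their direction under the scalings, background correction, filters, mean of probes and variance models that gave a value. Taken alone, the dimmer Cdkn1a probe differed by -0.23 and the dimmer Trp53inp1 probe by 0.0098, against the direction of the brighter probes. Cdkn1a and Eda2r gave none when probes had to be well above background on all 4 arrays. Members near 0 changed sign, and the cause was not tested: Aen was -0.035 with the authors' series table, -0.019 with the mean of its probes, -0.015 with normexp and -0.029 with quantile scaling. Bbc3 was -0.014 with the series table and -0.0071 with normexp, Ccng1 -0.019 with the series table, Perp 0.00083 with median scaling and Zmat3 -0.016 with normexp. Leaving out 1 array, with the lone sample assumed to vary like the other group, gave ranges of -0.20 to 0.21 for Aen, -0.31 to 0.36 for Bbc3, -0.54 to 0.58 for Ccng1, -0.19 to 0.16 for Perp, 0.086 to 0.29 for Mdm2, 0.036 to 0.42 for Phlda3, -0.57 to 0.19 for Trp53inp1 and -0.22 to 0.33 for Zmat3.

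With the replicate block, which is the slide, Ifnar1 passed (-1.73, limma adjusted p = 0.0496), and over all genes 8 were called higher and 82 lower, against 0 and 0 without it; it changed no member's call. Leaving out 1 array gave 0 to 3 genes higher and 9 to 88 lower. The median of the BH3-only list was 0.042 with the mean of probes, 0.034 without a filter and 0.00543 to 0.21 over left-out arrays. The median of the other kinase inhibitors was 0.26 among probes well above background on all arrays, and -0.48 to 0.06 over left-out arrays. Left-out arrays gave 0.029 to 0.15 for further p53 targets and -0.037 to 0.044 for p53 and its regulators. Only 2 arrays per group and, for Cdkn1a and Eda2r, signal near background limit the precision.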
